A study of Mus musculus with 10 samples.

Results

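Collagens are extracellular matrix proteins built from 3 chains wound into a triple helix, and each chain is the product of its own gene. The collagen genes were taken as every gene of the count table whose symbol has the form Col, a number, a, a number, which gave 44 of the 49671 genes listed. RNA was measured in neural crest cells sorted by GFP from single mouse embryos at embryonic day 10.5, with 5 embryos in each of 2 genotypes. Control embryos were Wnt1Cre;R26mTmG;p53+/+ littermates. The embryos called p53_activated were Wnt1Cre;R26mTmG;p53LSL-25,26/+, so that Cre released a stabilised p53 from 1 Trp53 allele beside a normal one. Both genotypes carried the Wnt1-Cre driver and the R26mTmG reporter on a mixed 129/Sv and C57BL/6 strain. Wnt1-Cre is active in the dorsal neural tube, so the sorted cells can include neural tube beside neural crest. Each library held between 12368058 and 28379562 counts. As a check of the genotypes, the p53 target Cdkn1a averaged 7.93 CPM (counts per 1000000, scaled by TMM) in control and 105 CPM in p53_activated embryos. Sorted populations are mixtures, and fewer cells of a type cannot be told apart from less RNA per cell in any value given here.

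The cranial neural crest is the embryonic source of most of the facial skeleton, cartilage and connective tissue, and its cells both move through collagen-rich matrix and later make it. Fibrillar collagens, such as types I, II, III, V and XI, form the fibrils of bone, cartilage and soft connective tissue. Type IV forms the sheet of the basement membrane, where the multiplexins, types XV and XVIII, carry heparan or chondroitin sulphate chains. Types VI and IX and the other FACIT collagens (fibril-associated collagens with interrupted triple helices) form microfilaments or coat fibrils.

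Of the 44 collagen genes, 34 had enough counts to be tested in edgeR, with p adjusted over all 14528 genes tested and a threshold of 0.05. Col18a1, Col2a1 and Col4a5 were higher in p53_activated embryos, which is 3 of 34 (8.82%), beside 4.49% of all tested genes called higher. None was called lower, beside 2.74% of all tested genes. An unadjusted p under 0.05 was reached by 11 collagen genes, 7 with a positive and 4 with a negative log2 fold change, which is 32.4%, beside 22.6% of all tested genes. The 4 with a negative value were Col6a2, Col9a3, Col9a2 and Col26a1. The 2 groups did not overlap in CPM for Col18a1 and Col2a1, which is 5.88% of the 34, beside 8.07% of all tested genes. The median log2 fold change of the 34 collagen genes was 0.14, and that of all tested genes was -0.01. Single-gene values ran from -1.26 to 1.32, with 20 above and 14 below 0.

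**Figure D1:**
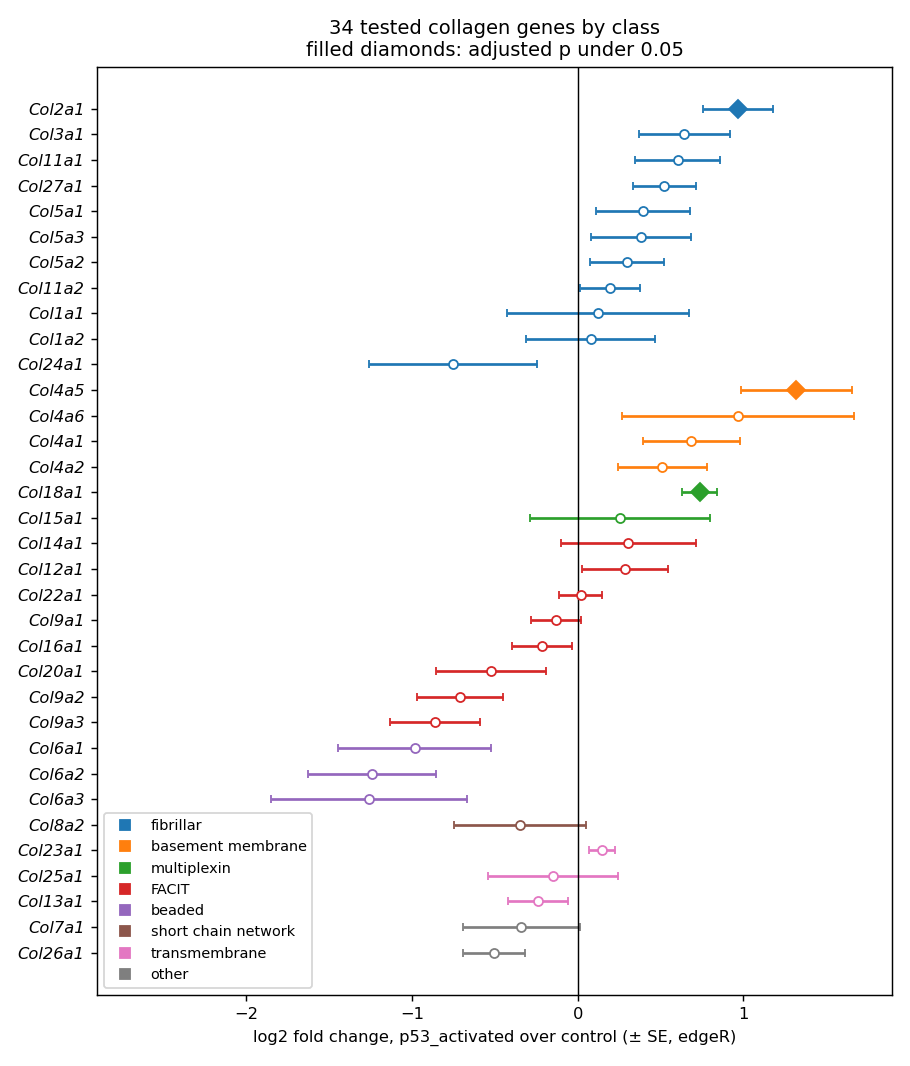
Log2 fold change (p53_activated over control, x axis, ± SE from edgeR) of the 34 tested collagen genes (y axis), coloured by class, with filled diamonds for adjusted p under 0.05. The 3 filled genes, Col18a1, Col2a1 and Col4a5, lie right of 0, and the 3 tested beaded collagens lie left of it, between -1.26 and -0.98.

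The promoters of 5 genes are shown because Col18a1 and Col4a5 were called higher, because Col4a1 and Col4a2 start head to head on chromosome 8, and because Col4a5 and Col4a6 do so on the X chromosome. They are RefSeq windows on GRCm38.p6, from 250 bases before to 50 bases after the gene start, 5′ to 3′ on the gene's strand, with every GGGCGG (the GC box, read as CCGCCC on the other strand) and every CCAAT (read as ATTGG) in capitals. The Col18a1 window is chr10:77166481-77166780 on the minus strand and belongs to the upstream of its 2 starts. The window of the other start, chr10:77113656-77113955, is not printed and holds neither GGGCGG nor CCAAT. The Col4a1 window is chr8:11312777-11313076 (minus) and that of Col4a2 is chr8:11312555-11312854 (plus). The Col4a5 window is chrX:141475169-141475468 (plus) and that of Col4a6 is chrX:141474027-141474326 (minus).
Col18a1: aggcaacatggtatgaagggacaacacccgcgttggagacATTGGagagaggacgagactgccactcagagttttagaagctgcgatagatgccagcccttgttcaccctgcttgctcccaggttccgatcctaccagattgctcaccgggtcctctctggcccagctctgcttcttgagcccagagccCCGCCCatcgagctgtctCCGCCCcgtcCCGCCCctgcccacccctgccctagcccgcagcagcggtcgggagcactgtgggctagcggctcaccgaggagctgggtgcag
Col4a1: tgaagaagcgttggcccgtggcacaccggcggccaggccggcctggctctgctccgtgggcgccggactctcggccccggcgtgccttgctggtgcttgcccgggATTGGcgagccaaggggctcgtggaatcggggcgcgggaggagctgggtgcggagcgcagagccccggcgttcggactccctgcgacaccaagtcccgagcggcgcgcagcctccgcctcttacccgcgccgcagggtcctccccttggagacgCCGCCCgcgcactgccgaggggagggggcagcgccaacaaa
Col4a2: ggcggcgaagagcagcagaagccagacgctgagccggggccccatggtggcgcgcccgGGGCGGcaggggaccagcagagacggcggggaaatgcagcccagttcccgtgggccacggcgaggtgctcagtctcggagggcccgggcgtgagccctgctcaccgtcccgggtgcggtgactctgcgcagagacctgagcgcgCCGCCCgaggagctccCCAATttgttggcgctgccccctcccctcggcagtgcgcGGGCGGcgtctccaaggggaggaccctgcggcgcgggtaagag
Col4a5: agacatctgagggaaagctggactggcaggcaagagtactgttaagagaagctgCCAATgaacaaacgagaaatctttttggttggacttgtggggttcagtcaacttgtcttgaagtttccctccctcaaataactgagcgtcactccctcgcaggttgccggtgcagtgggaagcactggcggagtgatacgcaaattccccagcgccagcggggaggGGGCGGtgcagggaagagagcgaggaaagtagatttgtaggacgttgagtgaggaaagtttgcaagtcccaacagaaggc
Col4a6: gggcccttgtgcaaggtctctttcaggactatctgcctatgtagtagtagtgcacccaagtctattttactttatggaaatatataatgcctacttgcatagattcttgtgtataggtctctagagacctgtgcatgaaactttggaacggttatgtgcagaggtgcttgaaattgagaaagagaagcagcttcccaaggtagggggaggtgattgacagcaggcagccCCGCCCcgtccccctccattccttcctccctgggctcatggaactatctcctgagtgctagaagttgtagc

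The Col4a1 and Col4a2 windows share 78 bases, read in opposite directions, and the Col4a6 and Col4a5 windows lie 842 bases apart. In the table of 32817 promoter windows, 35 of the 44 collagen genes were found, with 38 windows; Col2a1 was not among them. GGGCGG occurred on either strand in 23 of the 38 collagen windows (60.5%) and in 35.6% of all windows. CCAAT occurred in 13 of 38 (34.2%) and in 37.4% of all, and TATAAA in 5 of 38 (13.2%) and in 13.6% of all. The consensus half-site of p53 was found in 8.36% of all windows and in those of 4 collagen genes, Col17a1, Col20a1, Col6a6 and Col9a2. The full p53 consensus, with a spacer of up to 13 bases, was in 0.0731% of all windows and in none of the collagen windows. These matches describe letters in 300-base windows only.

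Col18a1 (ENSMUSG00000001435, chr10:77052178-77166548, minus strand) encodes the chain of type XVIII collagen, a basement membrane multiplexin whose C-terminal fragment is endostatin. Its CPM in control embryos 1 to 5 were 94.3, 104, 115, 128 and 135. In p53_activated embryos 1 to 5 they were 169, 191, 191, 217 and 191. Every p53_activated library lay above every control library, and both groups were narrow. The means were 115 ± 16.6 and 192 ± 16.9 CPM (SD over 5 embryos in each group). The log2 fold change was 0.74 with an SE of 0.11 (edgeR adjusted p = 0.00036). This gene was called in each of the 23 alternative settings tried. Col15a1, the other multiplexin and the closest relative of Col18a1, was scarce, at 1.60 ± 1.10 and 1.86 ± 1.32 CPM (log2 fold change 0.25, edgeR adjusted p = 0.832).

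Col2a1 (ENSMUSG00000022483, chr15:97975602-98004695, minus strand) encodes the single chain of type II collagen, the main fibril of cartilage. Its CPM in control embryos 1 to 5 were 90.5, 106, 75.8, 83.8 and 95.0. In the p53_activated embryos they were 113, 144, 149, 281 and 194. The groups did not overlap, but the p53_activated values were wide, with embryo 4 at the top. The means were 90.3 ± 11.5 and 176 ± 65.3 CPM (SD over 5 embryos in each group). The log2 fold change was 0.97 with an SE of 0.21 (edgeR adjusted p = 0.018). The call was lost without control 1 (edgeR adjusted p = 0.0580), without both control 1 and control 2 (0.0951), and with no filter on low counts (0.0745).

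Col4a5 (ENSMUSG00000031274, chrX:141475385-141689234, plus strand) encodes a type IV chain mutated in Alport syndrome, a disease of kidney and inner ear basement membranes. Its CPM in control embryos 1 to 5 were 3.35, 2.60, 4.65, 2.49 and 3.79. In the p53_activated embryos they were 5.16, 7.98, 3.60, 14.3 and 11.1. Only p53_activated embryo 3 fell inside the control range, and embryos 4 and 5 were highest. The means were 3.38 ± 0.894 and 8.43 ± 4.36 CPM (SD over 5 embryos in each group). The log2 fold change was 1.32 with an SE of 0.33 (edgeR adjusted p = 0.0268). The call was lost without p53_activated 4 (edgeR adjusted p = 0.0672) or without p53_activated 5 (0.0749), without control 1, 2 or 4 (0.0543, 0.0741 and 0.0671), and in the limma-voom fit (0.0808). Without both p53_activated 4 and 5 the log2 fold change was 0.73 (0.217), and without both control 1 and 2 the adjusted p was 0.133.

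**Figure D2:**
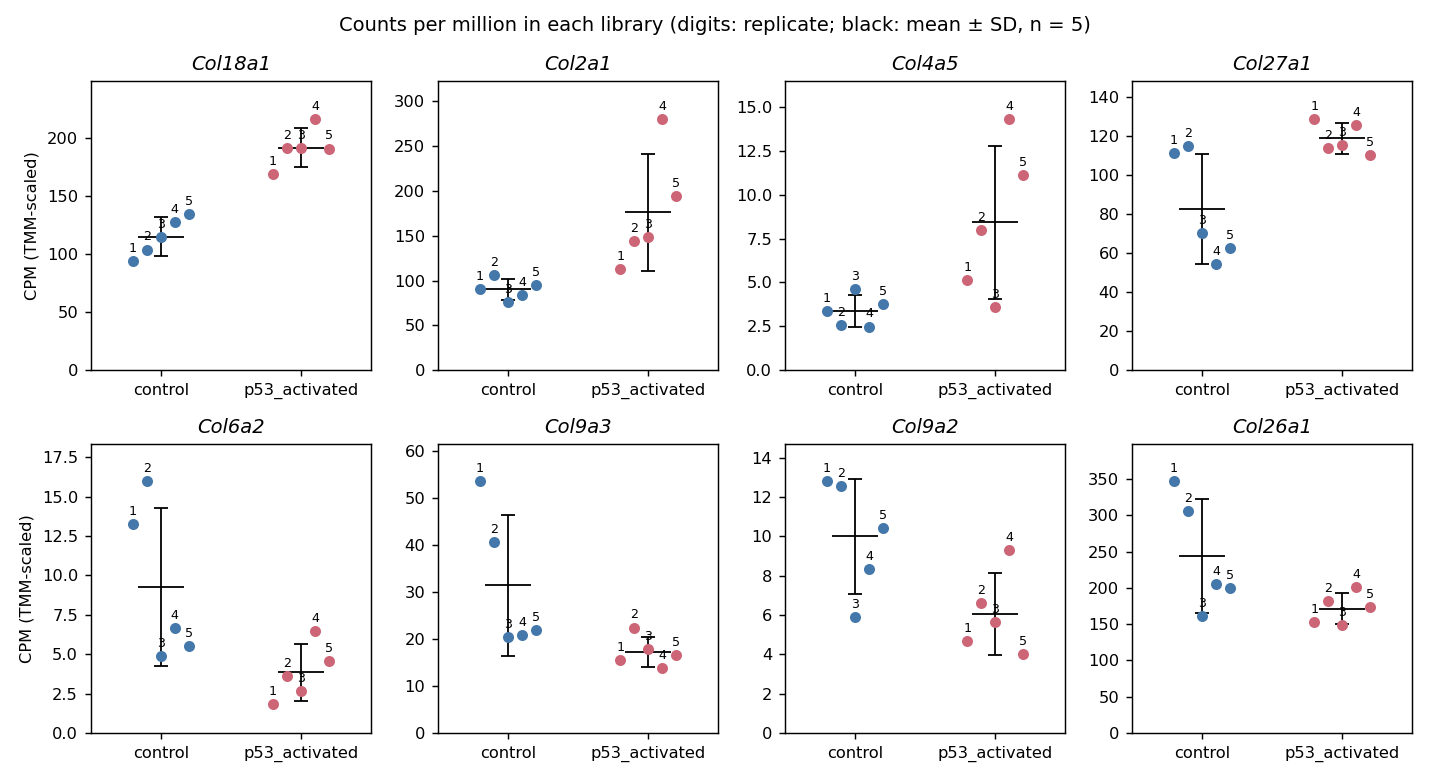
CPM (y axis, linear from 0) of 8 collagen genes in each control (blue) and p53_activated (red) library, with the replicate number on each point and the mean ± SD (n = 5) in black. Only the panels of Col18a1 and Col2a1 show groups that do not overlap, and control 1 and 2 lie above the other control libraries in the panels of Col27a1, Col6a2, Col9a3, Col9a2 and Col26a1.

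Besides Col4a5, the tested type IV genes were Col4a1, Col4a2 and Col4a6, and all 4 had a positive log2 fold change, with a median of 0.83, except that Col4a6 was at -0.26 in limma-voom. Col4a1 and Col4a2 encode the 2 chains of the type IV trimer found in nearly all basement membranes. Col4a1 gave 52.99, 68.7, 52.7, 47.9 and 63.1 CPM in control and 51.1, 72.1, 66.5, 172 and 96.5 CPM in p53_activated embryos. Its log2 fold change was 0.69 (SE 0.29, edgeR adjusted p = 0.1999), with p53_activated 4 far above the rest and p53_activated 1 and 3 inside the control range. Col4a2 gave 41.3, 47.0, 33.3, 41.0 and 49.5 CPM in control and 33.8, 50.3, 46.8, 110 and 60.4 CPM in p53_activated embryos (log2 fold change 0.51, SE 0.27, edgeR adjusted p = 0.289). In both genes p53_activated 4 and 5 were the 2 highest libraries. With each level divided by exon length, the ratio of Col4a1 to Col4a2 had a median of 1.138 in control (1.04 to 1.41) and 1.34 in p53_activated embryos (1.26 to 1.42), and the ranges overlapped.

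Col4a6, whose product pairs with that of Col4a5 in some epithelial and smooth muscle basement membranes, did not follow it across the libraries. Col4a6 gave 2.22, 1.57, 2.99, 0.510 and 1.75 CPM in control and 3.65, 3.20, 6.81, 0.0988 and 4.37 CPM in p53_activated embryos (log2 fold change 0.97, SE 0.70, edgeR adjusted p = 0.464). In p53_activated 4, the library with the most Col4a5 (435 counts), Col4a6 had 3 counts, while in p53_activated 3 it had 104 counts beside 55 of Col4a5. Col4a3 and Col4a4, the remaining type IV genes, had 14 and 13 counts over all 10 libraries and were not tested.

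The other genes of the basement membrane were read from a list of 12 partners of type IV collagen, all tested, of which 5 were called higher and none lower, beside 4.49% and 2.74% of all tested genes. The list's median on the log2 scale was 0.66, where that of all tested genes was -0.01. The 5 were Hspg2, which encodes the heparan sulphate proteoglycan perlecan, and the laminin chain genes Lama1, Lama5, Lamb1 and Lamc1. Hspg2 gave 68.3, 65.1, 53.5, 57.4 and 61.5 CPM in control and 93.0, 117, 109, 152 and 128 CPM in p53_activated embryos. Its groups did not overlap, and its log2 fold change was 0.97 (SE 0.12, edgeR adjusted p = 8.9e-05). These 4 laminin chains, picked by their adjusted p, did not overlap between groups either. Of all tested genes, 8.07% did not overlap. Lamc1 averaged 10.01 ± 2.50 CPM in control and 22.4 ± 7.13 CPM in p53_activated embryos, a log2 fold change of 1.17 (edgeR adjusted p = 0.00565). Lamb1 averaged 33.8 ± 3.36 and 53.5 ± 9.03 CPM, with a log2 fold change of 0.67 (edgeR adjusted p = 0.00381). For Lama1 the averages were 23.0 ± 1.62 and 36.1 ± 6.83 CPM, with a log2 fold change of 0.65 (edgeR adjusted p = 0.00896). For Lama5 they were 9.61 ± 3.01 and 19.5 ± 7.68 CPM, with a log2 fold change of 1.02 (edgeR adjusted p = 0.0362). The other 3 laminin genes of the list overlapped between groups and were not called, with log2 fold changes of -0.39 for Lama2, -0.44 for Lama4 and -0.0038 for Lamb2. Lama1 lost its call only without both p53_activated 4 and 5 (0.0522). Lama5 lost it without any 1 of control 1, 2, 3 and 4 and p53_activated 4 and 5 (0.0519 to 0.0904), among 12 of 23 alternative settings. Nid2 (log2 fold change 1.23, edgeR adjusted p = 0.0517), Nid1 (0.82, 0.0896) and Agrn (0.36, 0.221) did not pass. Nid2 passed in 4 of the 23 alternative settings, among them without p53_activated 1 or 2. Nid1 passed in 3, among them without p53_activated 1, and Agrn in 2, among them without control 1. In DESeq2, 7 of the 12 partners were called higher.

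**Figure D3:**
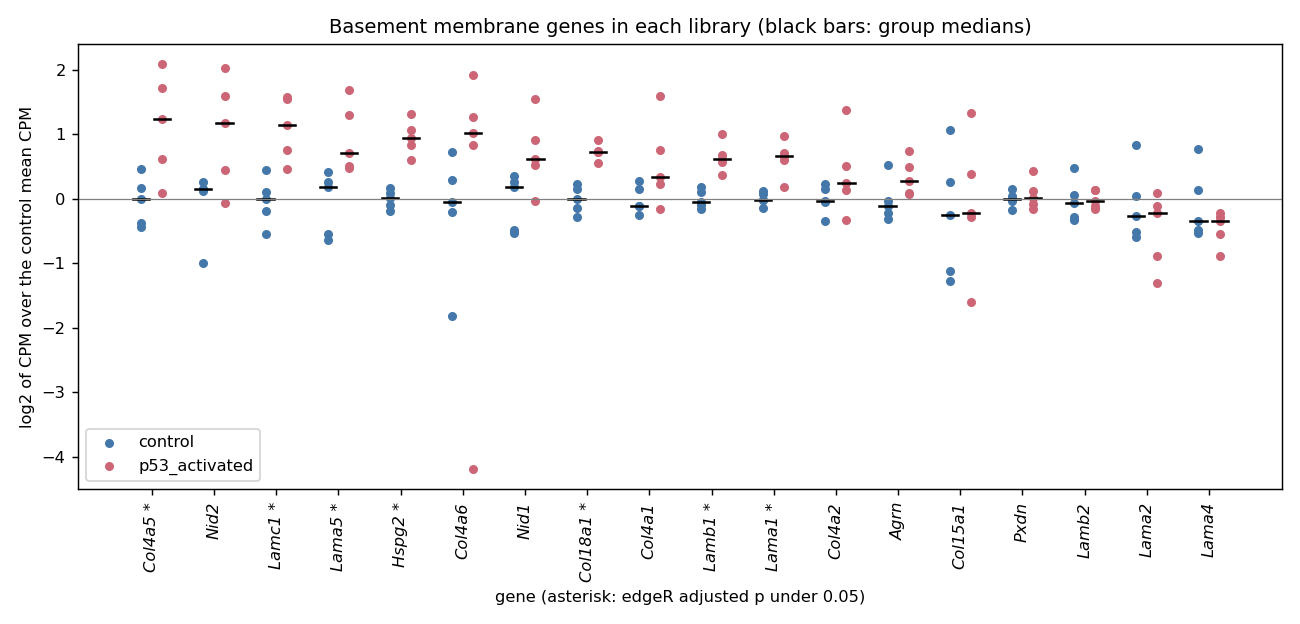
Log2 of CPM over the gene's control mean (y axis) in each library (points; blue control, red p53_activated; black bars, medians) for the tested type IV and multiplexin collagens and 12 basement membrane partners (x axis; asterisk, edgeR adjusted p under 0.05). The 7 genes with an asterisk are Col18a1, Col4a5, Hspg2, Lama1, Lama5, Lamb1 and Lamc1, and Col4a6 has 1 p53_activated library far below all others.

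Markers of cells that carry or border basement membranes are given here beside these results. Summed CPM of 6 endothelial markers ran from 15.7 to 56.6 in control and from 25.3 to 42.7 in p53_activated embryos, and that of 6 epithelial markers from 69.5 to 161 and from 38.0 to 110. None of the 5 tested endothelial and 6 tested epithelial markers was called higher. Single markers differed widely in level. The endothelial gene Cdh5 was at 0 to 1.149 CPM in control and 0 to 1.80 CPM in p53_activated embryos. Cldn5, also endothelial, was at 9.28 to 32.2 and 16.4 to 24.5 CPM. The epithelial gene Epcam was at 2.37 to 12.02 and 0.982 to 5.50 CPM, and Krt18 at 40.8 to 88.8 and 25.1 to 54.7 CPM. Summed CPM of 4 erythroid genes ran from 668 to 3605 and from 386 to 4812, with p53_activated 4, the library in which Col4a1, Col4a2 and Col4a5 were highest, at the top. Among the p53_activated libraries, p53_activated 4 also had the highest endothelial and epithelial sums, at 42.7 and 110 CPM. The part of these cell types in the type IV, laminin and Col18a1 values was not tested. Notochord is another source of Col2a1, and 4 markers were read for it. Noto was at 0 in all 5 control libraries and in 4 of the p53_activated ones, and T was at 0 in 3 of each group and at most 0.874 CPM. Foxa2 and Shh, which floor plate also expresses, were at 0.735 to 2.70 and at 6.98 to 17.0 CPM. Summed CPM of the 4 ran from 10.6 to 19.7 in control and from 8.66 to 16.6 in p53_activated embryos, and their part in the Col2a1 values was not tested.

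The fibrillar class held 11 genes, all tested, and 10 had a positive log2 fold change (median 0.38), but only Col2a1 passed. Without p53_activated 4 the positive values were 8 of 11. Col27a1, a fibrillar collagen of cartilage, gave 111, 115, 70.1, 54.2 and 62.5 CPM in control and 129, 113, 115, 126 and 110 CPM in p53_activated embryos (log2 fold change 0.52, SE 0.19, edgeR adjusted p = 0.118). Control 1 and 2 lay among the p53_activated values, while control 3, 4 and 5 lay well below them. Without those 2 control libraries the log2 fold change was 0.93 (edgeR adjusted p = 5.07e-05), and without control 2 alone the adjusted p was 0.0385. In the authors' deposited table Col27a1 was called higher (log2 fold change 0.48, adjusted p = 0.0401).

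Col3a1, which forms type III fibrils of soft connective tissue and vessel walls, gave 110, 142, 74.8, 84.4 and 105 CPM in control and 105, 135, 119, 278 and 168 CPM in p53_activated embryos. Its log2 fold change was 0.64 (SE 0.27, edgeR adjusted p = 0.198), and only p53_activated 4 and 5 lay above the control range. Col11a1, whose chain sits in the core of cartilage fibrils with type II, gave 12.9, 19.4, 9.10, 10.1 and 13.5 CPM against 10.7, 19.2, 16.5, 29.9 and 21.8 CPM (log2 fold change 0.60, SE 0.26, edgeR adjusted p = 0.178). Per exon length its level was a small part of that of Col2a1, with a median ratio of 0.10 in control and 0.08 in p53_activated embryos.

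Type I collagen, the main fibril of bone and skin, is a trimer of 2 chains from Col1a1 and 1 from Col1a2. Col1a1 gave 72.0, 58.7, 15.6, 30.6 and 28.05 CPM in control and 23.0, 28.8, 23.6, 96.3 and 49.9 CPM in p53_activated embryos. Col1a2 gave 185, 170, 67.2, 81.7 and 90.2 CPM against 89.96, 99.7, 81.9, 229 and 126 CPM. In both genes control 1, control 2 and p53_activated 4 were the 3 highest libraries, and the groups overlapped widely (log2 fold change 0.12, SE 0.55, edgeR adjusted p = 0.928 for Col1a1; 0.08, SE 0.39, 0.934 for Col1a2). The sign for Col1a1 turned without p53_activated 4 (-0.38) or control 3 (-0.07). The sign for Col1a2 turned without p53_activated 4 (-0.26) and, close to 0, without control 3 (-0.06), control 4 (-0.03) or control 5 (-0.0044). Col1a1 to Col1a2 stood at a median ratio of 0.65 per exon length in control (0.44 to 0.74) and 0.55 in p53_activated embryos (0.48 to 0.80). With the length of the longest transcript in place of all exons the medians were 0.31 and 0.26, so the ratio itself depends on the length used. Col3a1 to Col1a1 ran from 1.02 to 3.20 in control and from 1.93 to 3.38 in p53_activated embryos.

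Type V chains set the width of type I fibrils. Col5a2, a neighbour of Col3a1 on chromosome 1, averaged 39.3 ± 11.1 and 48.0 ± 15.2 CPM, with a log2 fold change of 0.30 (edgeR adjusted p = 0.487). Col5a1 averaged 31.0 ± 7.29 and 40.5 ± 18.8 CPM, with one of 0.39 (edgeR adjusted p = 0.462). Both were highest in p53_activated 4, at 73.3 and 70.7 CPM. The median ratio of Col5a1 to Col5a2 per exon length was 0.88 in control and 0.91 in p53_activated embryos. Col5a3 and Col11a2 were scarcer, at 2.47 ± 0.932 and 3.20 ± 0.711 CPM and at 8.50 ± 1.72 and 9.74 ± 1.32 CPM, and did not pass. Col24a1, the fibrillar gene with a negative log2 fold change (-0.75, edgeR adjusted p = 0.417), was at 4.89 CPM in control 1 and at 0.694 to 2.77 CPM in the other 9 libraries.

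Among the collagens of type VI, which form beaded microfilaments around cells, Col6a1, Col6a2 and Col6a3 were tested, and all 3 had a negative log2 fold change (median -1.24) with none called lower. Col6a2 gave 13.2, 15.97, 4.90, 6.64 and 5.54 CPM in control and 1.86, 3.62, 2.68, 6.49 and 4.58 CPM in p53_activated embryos (log2 fold change -1.24, SE 0.39, edgeR adjusted p = 0.0679). Control 1 and 2 were the 2 highest libraries, and control 3, 4 and 5 overlapped the p53_activated values. Col6a2 passed without control 3 (edgeR adjusted p = 0.0419), without p53_activated 4 (0.0371), with a trend on exon length removed (0.0354) and in DESeq2 (0.0120). Col6a3 showed the same 2 libraries on top, with 31.4, 16.04, 4.86, 5.30 and 5.46 CPM against 2.96, 5.36, 2.88, 9.32 and 5.41 CPM (-1.26, SE 0.59, edgeR adjusted p = 0.243). Col6a1 had a log2 fold change of -0.98 (SE 0.46, edgeR adjusted p = 0.223). Without control 1 and 2 the median of the 3 was -0.08, with 1 positive value, and that of Col6a2 was -0.55. Col6a4, Col6a5 and Col6a6 had 34, 14 and 32 counts in all and were not tested.

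Type IX is a FACIT collagen that coats type II fibrils and is made of chains from Col9a1, Col9a2 and Col9a3. None of its 3 genes passed in edgeR. Col9a3 gave 53.5, 40.6, 20.4, 20.7 and 21.9 CPM in control and 15.5, 22.4, 17.9, 13.9 and 16.6 CPM in p53_activated embryos (log2 fold change -0.86, SE 0.27, edgeR adjusted p = 0.0762). It passed without control 3 (edgeR adjusted p = 0.0413) and in DESeq2 (0.0110). Exons of Tcfl5 overlap 6.07% of its exon length, and the strand setting of the counting is not given. Col9a2 gave 12.8, 12.6, 5.90, 8.36 and 10.4 CPM against 4.68, 6.62, 5.63, 9.32 and 4.02 CPM (-0.71, SE 0.26, edgeR adjusted p = 0.113), and passed without p53_activated 4 (0.0397). Col9a1 averaged 37.9 ± 2.94 and 34.5 ± 7.93 CPM (-0.13, SE 0.15, edgeR adjusted p = 0.662). Of the 8 tested FACIT genes 3 were positive and 5 negative, none called, and the ninth, Col19a1, had 45 counts in all. Col12a1, found along fibrils of tendon and fascia, averaged 7.78 ± 3.43 and 9.43 ± 1.27 CPM, and Col14a1, a like gene, 2.12 ± 0.828 and 2.60 ± 1.37 CPM. Col22a1, a gene of tissue junctions, gave nearly the same mean in both groups, 20.0 ± 1.52 and 20.3 ± 2.82 CPM (log2 fold change 0.02, SE 0.13). Col20a1 was at 14.4 and 10.2 CPM in control 1 and 2 and at 3.79 to 7.54 CPM in the other 8 libraries, and Col16a1 at 18.3 and 18.9 CPM and at 9.83 to 13.8 CPM.

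Col26a1, a collagen-like gene of the EMI domain family, had the highest level per exon length of all 44 in control embryos and, behind Col18a1, the second in p53_activated embryos. Its CPM were 347, 306, 161, 205 and 199 in control and 153, 182, 148, 201 and 174 in p53_activated embryos (log2 fold change -0.51, SE 0.19, edgeR adjusted p = 0.129). Control 1 and 2 again lay above all other libraries, and the remaining 8 lay between 148 and 205. Without control 3 the gene passed (edgeR adjusted p = 0.0361). Col7a1, the anchoring fibril collagen of skin, averaged 19.7 ± 12.5 and 15.6 ± 3.19 CPM, with control 1 at 40.3; its log2 fold change was -0.34, and 0.10 without control 1. Col23a1, a transmembrane collagen, averaged 98.7 ± 5.59 and 109 ± 5.68 CPM (log2 fold change 0.15, SE 0.08, edgeR adjusted p = 0.274). The other tested transmembrane genes, Col13a1 and Col25a1, averaged 9.45 ± 1.74 and 7.99 ± 0.965 CPM and 1.99 ± 0.346 and 1.76 ± 0.968 CPM, and neither passed. Col8a2, a short-chain network collagen of the cornea, gave 28.1, 28.7, 10.2, 11.1 and 9.91 CPM against 10.3, 10.9, 8.18, 23.5 and 15.7 CPM (-0.35, edgeR adjusted p = 0.671). Its partner Col8a1 had 103 counts, 55 of them in control 1, and was not tested. Col10a1 (3 counts), Col17a1 (72) and Col28a1 (23) were not tested either. The 18 tested genes outside the naming rule ran from -1.26 to 0.97 in log2 fold change, with adjusted p from 0.223 to 0.951.

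**Figure D4:**
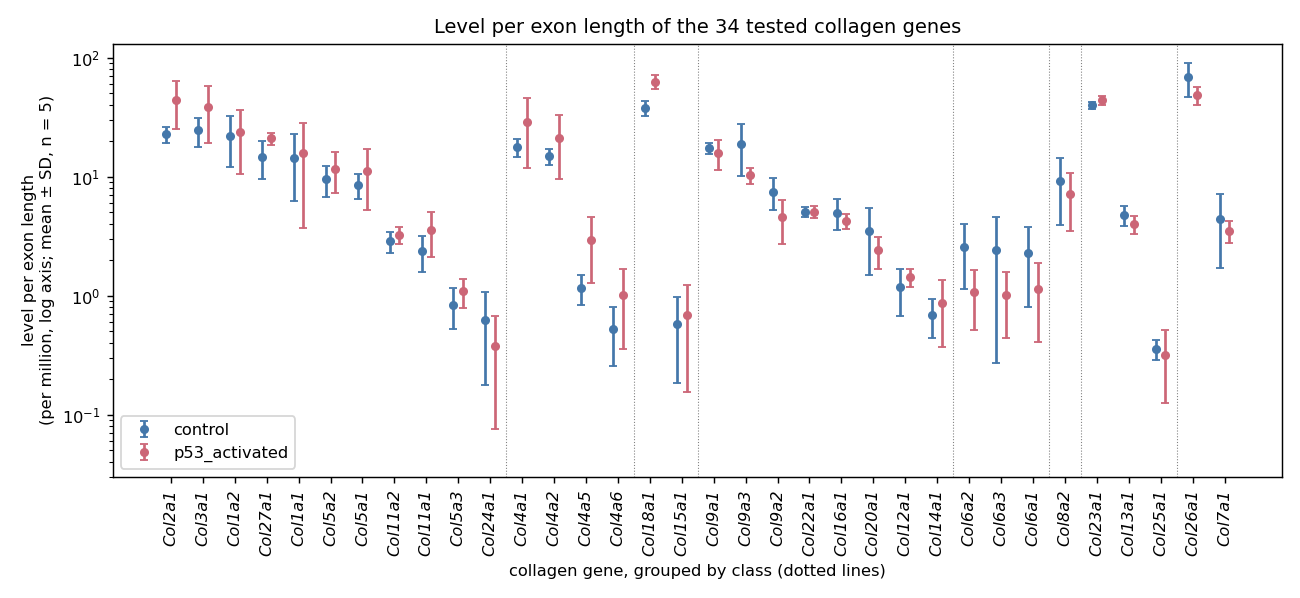
Level per exon length (y axis, each count divided by exon length and rescaled to a sum of 1000000 per library, log axis; mean ± SD, n = 5) of the 34 tested collagen genes (x axis, grouped by class) in control (blue) and p53_activated embryos (red). By the mean over all libraries Col26a1, Col18a1, Col23a1, Col2a1 and Col3a1 lead, and the untested genes are not drawn.

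Levels of different genes were compared per exon length, as each count divided by the length of the gene's exons and rescaled to a sum of 1000000 per library. On this scale Col26a1 stood at 68.8 ± 22.0 in control and 48.2 ± 8.35 in p53_activated embryos (SD, n = 5 each). Col18a1 stood at 37.9 ± 5.36 and 62.8 ± 8.32, Col23a1 at 39.8 ± 2.79 and 43.8 ± 3.69, and Col2a1 at 22.6 ± 3.29 and 44.2 ± 19.0. In control embryos Col18a1 and Col23a1 did not differ beyond their spread. Col3a1 (24.4 ± 6.69 and 38.2 ± 19.0), Col1a2 (22.1 ± 10.1 and 23.6 ± 12.96), Col4a1 (17.7 ± 3.13 and 28.7 ± 16.9) and Col4a2 (14.8 ± 2.28 and 21.2 ± 11.7) came next, and neighbours among these 4 overlapped. With the length of all exons, Col26a1 led in control and Col18a1 in p53_activated embryos, and in control Col23a1 stood just above Col18a1. Ranked by the mean over all 10 libraries, Col26a1 and Col18a1 held ranks 1 and 2 with either length, while Col23a1 moved from 3 to 6 when the longest transcript was used. Col26a1 has 8176 bases of exon but a longest transcript of 2781. With the longest transcript the means over all 10 libraries were 129 for Col26a1 and 47.3 for Col18a1. In p53_activated embryos Col26a1 averaged 171 CPM and Col18a1 192 CPM, and the longest transcript of Col18a1 has 5595 bases. The lead of Col18a1 in p53_activated embryos therefore held only for the length of all exons. With the longest transcript Col26a1 stood above Col18a1 in these embryos too. Together the collagen genes took 0.102% to 0.165% of the counts in control and 0.120% to 0.238% in p53_activated libraries.

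**Figure D5:**
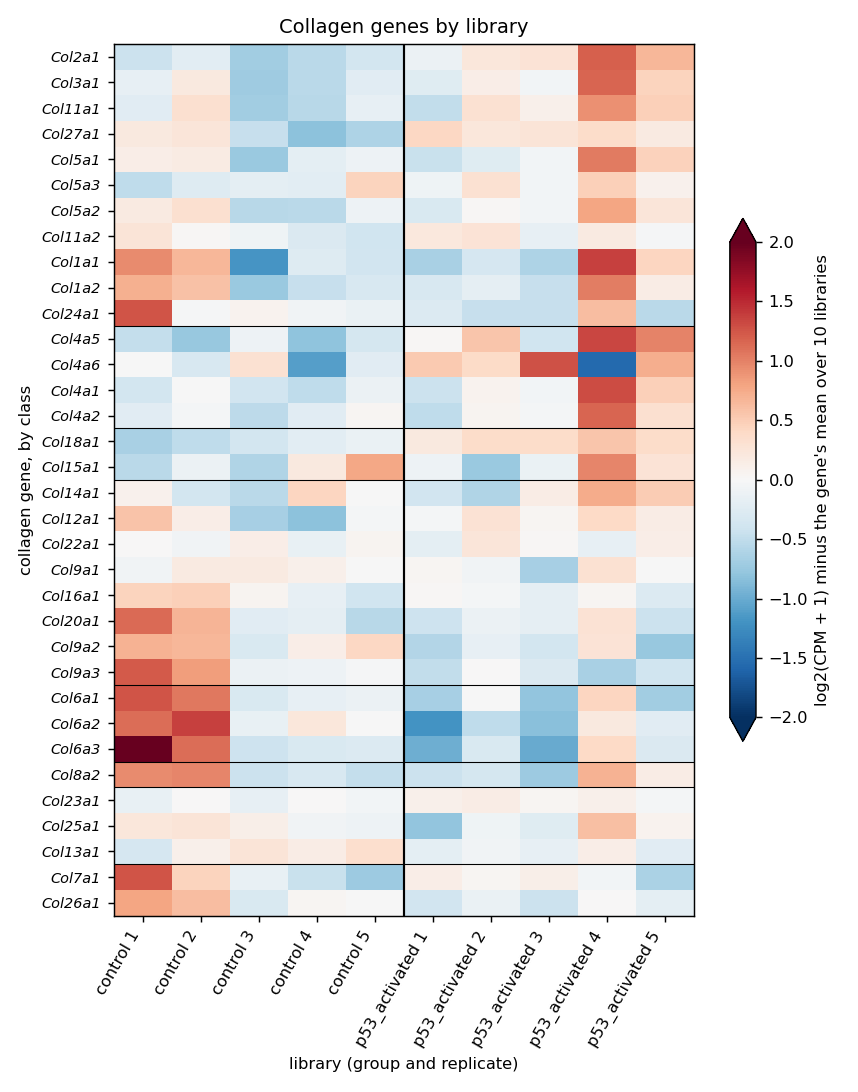
Log2(CPM + 1) minus the gene's mean over the 10 libraries (colour) for the 34 tested collagen genes (rows, by class) in each library (columns; a line parts the groups). The column of p53_activated 4 is mostly above 0, with a median of 0.45, and those of control 1 and control 2 are at 0.19, above the other control columns, which are at -0.31 to -0.12.

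Embryos of one group differed in many collagen genes at once. Of the 34 tested genes, 16 were highest in p53_activated 4 among all libraries and 9 in control 1, and control 1 and 2 were the 2 highest control libraries for 19. The same shares over all tested genes were not taken, so whether this is particular to collagen genes was not tested. Without p53_activated 4 the collagen genes had 17 positive and 17 negative log2 fold changes with a median of -0.11. Without control 1 and 2 they had 24 positive and 10 negative with a median of 0.31. The collagen median thus turned negative without p53_activated 4 and stayed positive without control 1 and 2. Runx2, the osteoblast transcription factor, was at 23.3 and 9.83 CPM in control 1 and 2, and at 1.54 to 2.48 CPM in control 3, 4 and 5. It was at 2.22 to 5.10 CPM in the p53_activated embryos, and its part in the collagen values was not tested.

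The labels' cell type was checked with markers. All 8 neural crest and all 7 arch mesenchyme markers were tested; Snai2 and Prrx2 were called lower, 2 of 15 beside 2.74% of all tested genes, and none was called higher. Their summed CPM were 172 to 229 and 370 to 559 in control, and 151 to 202 and 331 to 403 in p53_activated embryos. Marker lists of 8 other cell types (endothelial, epithelial, somite, muscle, notochord, erythroid, macrophage and otic) held no called gene. Their median log2 fold changes were -0.78 for epithelial, -0.62 for somite and -0.81 for muscle markers, and -0.25 to 0.28 for the other lists. None of the 6 tested epithelial and 5 tested somite markers had a positive value. Absence of calls thus does not show an equal mixture of cells in both groups.

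The enzymes and chaperones of collagen biosynthesis were counted over 24 genes, 23 of them tested, with 2 called higher and 1 lower beside 4.49% and 2.74% of all tested genes. Plod2, a lysyl hydroxylase of the collagen telopeptides, and Creb3l1, a transcription factor that activates type I collagen in osteoblasts, were higher, and P3h4 was lower. Plod2 gave 4.04, 6.13, 2.70, 3.38 and 4.52 CPM in control and 6.88, 8.45, 7.86, 13.8 and 6.94 CPM in p53_activated embryos (log2 fold change 1.10, SE 0.26, edgeR adjusted p = 0.0189), with no overlap. Creb3l1 averaged 0.829 ± 0.404 and 2.46 ± 0.972 CPM (1.58, SE 0.46, edgeR adjusted p = 0.0471), and P3h4, a partner of lysyl hydroxylation, 26.1 ± 4.47 and 18.4 ± 1.37 CPM (-0.50, SE 0.14, 0.037). Exons of Gm38391 overlap 6.42% of the exon length of Plod2. The call of Plod2 was lost in 2 of 23 alternative settings. In 1 of them control 4 was left out (edgeR adjusted p = 0.0504), and the other lay further above the threshold. Creb3l1 lost its call without any 1 of the libraries other than control 1 and p53_activated 3, and P3h4 without any 1 other than control 3. The collagen chaperone Serpinh1 averaged 434 ± 198 and 330 ± 83.9 CPM (-0.39, edgeR adjusted p = 0.530). Plod1 (log2 fold change -0.60, edgeR adjusted p = 0.124), Colgalt1 (0.60, 0.167) and Mia2 (0.51, 0.250) did not pass. The median of the list was -0.11.

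The list of processing and cross-linking genes had 14 tested of 18, with 0 called higher and 1 lower beside 4.49% and 2.74% of all tested genes. Loxl1, a lysyl oxidase for elastic fibres and collagen, was lower, at 19.3, 15.1, 7.52, 10.5 and 6.27 CPM in control and 2.48, 5.30, 4.91, 7.08 and 5.27 CPM in p53_activated embryos (log2 fold change -1.21, SE 0.32, edgeR adjusted p = 0.034). Control 1 and 2 were again highest. The call held without control 3, control 5 or p53_activated 4 and was lost without any other single library (0.0530 to 0.0865). Lum, a fibril-binding proteoglycan (-0.85, edgeR adjusted p = 0.0853), and Lox (-1.19, 0.142) did not pass. The median of the list was -0.22.

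Among 8 tested of 12 collagen receptors, Adgrg1, which binds type III collagen, was lower, at 119 ± 15.5 and 91.9 ± 6.47 CPM (log2 fold change -0.37, SE 0.10, edgeR adjusted p = 0.0328). The call held without control 3 or p53_activated 4 and was lost without any other single library. Ddr1, a receptor kinase for collagen, had a log2 fold change of 0.44 (edgeR adjusted p = 0.0598), and Itga10, an integrin chain for type II collagen, of 0.85 (0.106). Exons of Gm42957 overlap 33.53% of the exon length of Itga10. In the list 0 were called higher and 1 lower, beside 4.49% and 2.74% of all tested genes, and its median was 0.02.

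Of 13 genes of collagen breakdown, 11 were tested, with 1 called higher and 1 lower beside 4.49% and 2.74% of all tested genes. These were 2 membrane-type matrix metalloproteinases that moved in opposite directions. Mmp14, the collagenase at the cell surface, gave 462, 391, 271, 254 and 235 CPM in control and 135, 120, 122, 148 and 150 CPM in p53_activated embryos. Every p53_activated library was below every control library (log2 fold change -1.26, SE 0.17, edgeR adjusted p = 0.000617). Mmp15, a related gene, gave 81.9, 75.1, 68.0, 73.9 and 77.8 CPM in control and 85.4, 110, 105, 107 and 107 CPM in p53_activated embryos (0.45, SE 0.09, edgeR adjusted p = 0.00654), again with no overlap. Both calls held in all 23 alternative settings. Timp2, an inhibitor of these enzymes, had a log2 fold change of -0.38 (edgeR adjusted p = 0.0596). Mmp11 (-0.51, edgeR adjusted p = 0.177) and Ctsk (-0.70, 0.334) did not pass either. The median of the list was -0.12.

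The cartilage list had 10 of 15 genes tested and no call higher or lower, beside 4.49% and 2.74% of all tested genes. Its median log2 fold change was -0.09, with 4 values above 0. The smallest p-values were those of Matn4 (log2 fold change -1.28, edgeR adjusted p = 0.176), Sp7 (-0.91, 0.311) and Runx2 (-1.20, 0.367). Sox9, the transcription factor that activates Col2a1 in chondrocytes, averaged 69.8 ± 15.2 and 72.9 ± 9.84 CPM (log2 fold change 0.06, edgeR adjusted p = 0.854), while Col2a1 rose. Sox5 and Sox6, its partners, had -0.11 (0.796) and 0.22 (0.678), both edgeR adjusted p.

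Of the 35 collagen genes with an adjusted p in the authors' deposited table, 7 were called, beside 10.8% of all genes there. Col18a1, Col2a1, Col4a5 and Col27a1 were called higher, and Col9a3, Col6a2 and Col26a1 lower. The last 3 had log2 fold changes of -0.73, -0.90 and -0.46 in the authors' deposited table. In edgeR these 3 and Col27a1 did not pass.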

How the data were processed

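RNA of GFP-sorted cells was measured in 10 libraries, each from 1 embryo. The deposited values are whole-number counts for each Ensembl gene. Tools listed in the submitters' processing notes are DESeq2 1.14.1, HTSeq 0.6.1, HISAT2 2.0.4 and, beside the build GRCm38, SAMtools 1.3.1. The sources used here give neither the annotation release nor the strand setting. The authors' comparison table holds, per the file headers, a mean normalized signal, a log2 fold change with its SE, a Wald score, and p-values. Depth was 12368058 to 28379562 counts a library.

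Counts were tested in edgeR 4.0.16 (R 4.3.3): filterByExpr (minimum count 10, minimum total 15), TMM, robust quasi-likelihood F-test on all 10 libraries, Benjamini-Hochberg adjustment over 14528 genes. The method was tested on simulated data. SE is the log2 fold change over the root of F. Exon lengths are from GENCODE M21, with 99.3% of IDs found. P-values measure the spread between single embryos. Alternatives were other scalings, filters, limma-voom 3.58.1, DESeq2 1.42.0, embryo sex, the replicate number, an exon length trend, and leaving out libraries. Leaving out p53_activated 4 and 5 together was chosen after seeing the data. The collagen genes, companion lists and marker lists were chosen with earlier results of these data known. Named genes were those with an unadjusted p under 0.05, no overlap, or a leading level overall or in their class, and 3 others per companion list; collagen genes outside this rule, Sox9, Sox5, Sox6, Serpinh1 and single marker genes were named after their values were seen. Promoter windows are from RefSeq.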

Additional observations from a re-analysis of the deposited data

Results flagged for a closer look

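Over the 34 tested collagen genes and the named companion genes, 64 genes in all, 128 groups of 5 libraries were examined for 1 library far from the rest. In 8 groups there was one, and chance alone gives about 1 in 20. Col24a1 was at 4.89 CPM in control 1, where the nearest library of its group was at 1.58, and at 2.77 CPM in p53_activated 4, where the nearest was at 1.03. Col5a3 was at 4.08 CPM in control 5, above the nearest value of 2.28. Plod2 was at 13.8 CPM in p53_activated 4, where the nearest library of its group was at 8.45. Pcolce2, an enhancer of procollagen processing, was at 2.47 CPM in p53_activated 4, the lowest of its group, with the nearest at 4.16. Mmp15 was at 85.4 CPM in p53_activated 1, below the nearest value of 105. Agrn, an agrin gene of the basement membrane, was at 151 CPM in control 1, above the nearest value of 104. Nid2 was at 1.79 CPM in control 4, below the nearest value of 3.85.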

How the results depend on the processing

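Across 23 alternative settings Col18a1, Hspg2, Lamb1, Lamc1, Mmp14 and Mmp15 kept their direction and their call. Collagen genes called higher (3) ranged from 1 to 3 when single libraries were left out, the 1 being without control 1. Collagen genes called lower (none) were 1 with a trend on exon length removed, 2 in DESeq2 and 1 without both p53_activated 4 and 5, and 0 to 3 when single libraries were left out, with 3 without control 3 and 2 without p53_activated 4. Genes called over all (1050) were 1622 in DESeq2, 656 without both control 1 and 2, and 636 to 1025 with single libraries left out. Companion genes higher (8) were 4 without both p53_activated 4 and 5, and 5 to 9 with single libraries out; basement membrane partners higher (5) were 3 without that pair. Companion genes lower (4) were 1 with embryo sex as a covariate, 1 in limma-voom, 1 without both control 1 and 2, 2 without both p53_activated 4 and 5, and 1 to 7 with single libraries out. Of named genes that changed sign, none was called in edgeR. Without both p53_activated 4 and 5 the log2 fold change was -0.31 for Col14a1, -0.56 for Col15a1, -0.68 for Col1a1, -0.38 for Col1a2 and -0.11 for Col5a1. Without both control 1 and 2 it was 0.0772 for Col16a1, 0.20 for Col20a1, 0.0138 for Col25a1, 0.0106 for Col6a3, 0.38 for Col7a1, 0.41 for Col8a2, 0.57 for Itga11, 0.70 for Runx2, -0.0419 for Col15a1 and -0.0011 for Col22a1. Col22a1, at 0.02, was also -0.0167 with upper quartile scaling, -0.0016 with total counts, -0.0216 with embryo sex, -0.0905 with the length trend removed and -0.005 in limma-voom, where Col4a6 was -0.26; Col1a2 was -0.10 with the length trend removed. With single libraries out the ranges were -0.26 to 0.71 for Col15a1, -0.38 to 0.43 for Col1a1, -0.26 to 0.30 for Col1a2, -0.0455 to 0.0711 for Col22a1, -0.51 to 0.0598 for Col25a1, -0.51 to 0.10 for Col7a1 and -0.24 to 0.0044 for Col9a1. The cause was not tested.

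With a replicate block, 804 genes were called, 2 of them collagen genes called higher; the log2 fold change of Col4a5 was 1.19 (adjusted p = 0.0885). Deviations of same-numbered embryos from their group means correlated at -0.05 to 0.11, and 2 of 10 libraries correlated best with their own number. No pairing by number was seen, though weak correlations cannot exclude one. Upper quartile scaling gave 576 higher of 1114 called (51.7%), where TMM gave 652 of 1050 (62.1%). The 10 untested collagen genes had too few counts to be tested, with 3 to 103 in all.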
